A study of Mus musculus with 6 samples.

Results

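Interneurons that arise in the caudal ganglionic eminence are a class of GABAergic cells of the hippocampus, and 10 genes that mark them were followed in the quadruple knockout and wildtype hippocampus at postnatal day 21. The 10 genes are Vip, Htr3a, Reln, Calb2, Cck, Cnr1, Lamp5, Ndnf, Adarb2 and Nr2f2, out of 22180 genes that the array names by a single symbol. They were chosen by name, with earlier results of these data in view, and where a gene had several probe sets the brightest over the 6 arrays was to be taken, but each gene had only 1. Hippocampal RNA came from 3 males of the quadruple knockout (Tnc -/-, Tnr -/-, Bcan -/-, Ncan -/-), in which tenascin-C, tenascin-R, brevican and neurocan are missing together, and from 3 wildtype males of the same age, 1 Affymetrix Mouse Gene 2.0 ST array each. The methods name SV129 mice and describe the animals of the arrays as siblings. Because the 4 matrix genes were removed together, the part of any single one in a difference cannot be told apart. All values are log2 signals after Robust Multichip Average (RMA), a normalization that puts the arrays on a common scale, and a difference is the mean of the knockout minus the mean of the wildtype.

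During development the caudal eminence, a swelling of the embryonic ventral forebrain, sends out cells that settle mostly in the superficial layers of the cortex and in the outer layers of the hippocampus. In the hippocampus they become several kinds of cell. Cells with vasoactive intestinal peptide or calretinin often contact other interneurons, basket cells with cholecystokinin carry the cannabinoid receptor CB1 on their terminals, and neurogliaform cells with reelin release GABA widely onto distal dendrites. The other large class of interneurons, which includes parvalbumin and somatostatin cells, comes from the medial eminence. Perineuronal nets, to which the 4 deleted proteins belong, are best known around parvalbumin cells. Most of the 10 genes are also used outside this class, for example Reln, Ndnf and Calb2 in Cajal-Retzius cells, Calb2 in hilar mossy cells, Cck and Cnr1 in excitatory neurons, and Nr2f2 in blood vessels.

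All 10 marker genes had a knockout mean above the wildtype mean, which was so for 48.5% of all probe sets and for 54.9% of those above background, and none passed an adjusted p of 0.05. Cck and Lamp5 turned below 0 after another quantile normalization or with array weights. Htr3a, Nr2f2, Reln and Ndnf had log2 differences between 0.43 and 0.55, Cnr1 one of 0.21, and the other 5 genes lay between 0.01 and 0.16. In limma, a linear model that pools the estimates of variance across the array, 0 of the 10 had an adjusted p under 0.05 (Benjamini-Hochberg over all 34472 probe sets), against 0.139% of all probe sets. Before adjustment, a limma p under 0.05 was found for 5 of the 10, all 5 higher in the knockout, against 3.91% of all probe sets that were higher at this limit (4.94% of those above background) and 5.14% that were lower. With an ordinary test, which pools no variance, 0 had an adjusted p under 0.05 as well, and 4 were higher at an unadjusted p under 0.05. The share of all probe sets at this limit was not counted for the ordinary test. In the 5 genes with that limma p the lowest knockout array exceeded the highest wildtype array, as in 7.94% of all probe sets and 11.3% of those above background. The median log2 difference of the 10 genes was 0.19, beside -0.01 over all probe sets and 0.03 over the 14601 genes above background. Background was set at a log2 signal of 6.03, below which 95% of 1108 probe sets of olfactory receptor genes lie, and all 10 genes lay above it in all 6 arrays. Without knockout replicate 3 the count of 5 became 3 (Nr2f2, Ndnf and Reln), against 2.92% of all probe sets.

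**Figure D1:**
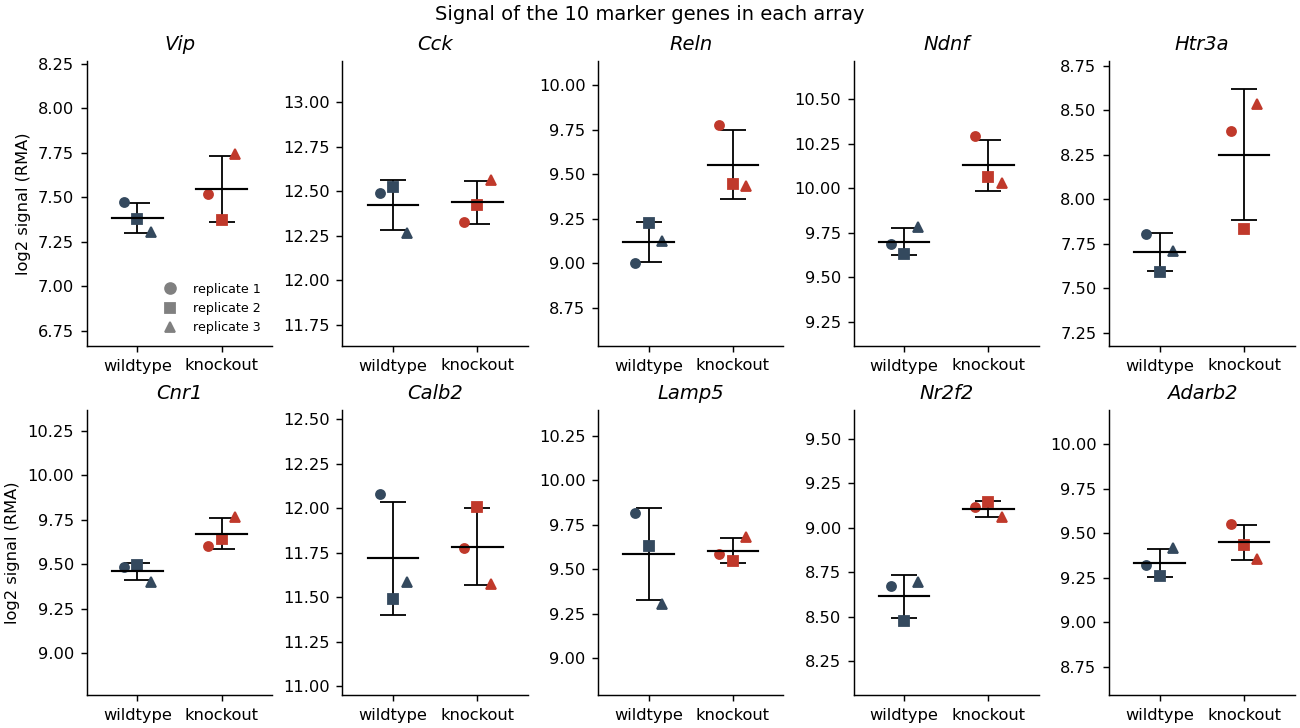
Log2 signal (RMA) of each of the 10 marker genes in the 3 wildtype (dark) and 3 knockout (red) arrays, with the mean (line) and SD (bars, n = 3); each vertical axis spans the same range of log2 units and does not start at 0. In Reln, Ndnf, Htr3a, Cnr1 and Nr2f2 the groups do not overlap, and in the other 5 genes they do.

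The deleted genes checked the labels. Mean signals of Bcan were 5.78 (knockout) and 10.49 (wildtype), and those of Ncan 6.65 and 11.78, while the probe sets of Tnc and Tnr, which check nothing if they lie outside the deleted parts, gave 7.96 against 8.11 and 11.62 against 11.71. The labels give no batch or scan time. Median signals differed slightly by genotype, with 6.30 to 6.33 in knockout and 6.34 to 6.39 in wildtype arrays. Genes of CA1 pyramidal neurons set knockout replicate 3 apart, where their mean lay 0.43 above the mean of all arrays, while the other 5 arrays lay between -0.20 and 0.19. In that array the mean of the CA3 genes was also highest, at 0.21, with the other 5 arrays between -0.14 and 0.04. The mean of the dentate granule cell genes was lowest there, at -0.24, with the others between -0.08 and 0.18. Immature granule cell genes were lowest there too, at -0.18, with the others between -0.02 and 0.09. Of the dentate granule cell genes all 9 measured lay above background. The smallest two-sided p that exact permutation of 3 and 3 arrays allows is 0.1, and Htr3a, Reln, Cnr1, Ndnf and Nr2f2 were at that limit. A gene reaches it whenever its groups do not overlap, so this restates the separation given above. In whole tissue, a greater number of cells of a type and more RNA per cell cannot be told apart.

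Promoter sequences are shown for 3 of the 5 genes whose groups did not overlap, Nr2f2, Reln and Cnr1, since these are the genes with the separated signals for which RefSeq sequences were at hand. Of the 10 genes 7 were matched by symbol, with 10 transcription starts, and Calb2, Htr3a and Ndnf were not in the table. Each run is the 250 bases before a transcription start of assembly GRCm38.p6, written 5′ to 3′ on the strand of the gene, with capitals at matches on either strand to 3 motifs. These are CCAAT, then GGGCGG, known as the GC box, and finally AGGTCA.
Nr2f2, chr7:70366747-70366996, minus strand: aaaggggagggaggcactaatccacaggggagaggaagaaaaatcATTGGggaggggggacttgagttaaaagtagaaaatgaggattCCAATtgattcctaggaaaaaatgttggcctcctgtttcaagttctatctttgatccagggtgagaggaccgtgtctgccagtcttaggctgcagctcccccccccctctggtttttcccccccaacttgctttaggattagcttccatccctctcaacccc
Reln, chr5:22344706-22344955, minus strand: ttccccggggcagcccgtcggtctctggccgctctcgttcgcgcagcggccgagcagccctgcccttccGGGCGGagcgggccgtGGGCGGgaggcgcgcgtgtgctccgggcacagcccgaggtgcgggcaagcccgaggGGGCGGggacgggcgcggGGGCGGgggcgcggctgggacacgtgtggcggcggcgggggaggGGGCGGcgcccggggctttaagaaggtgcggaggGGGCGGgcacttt
Cnr1, the first of 3 starts, chr4:33924014-33924263, plus strand: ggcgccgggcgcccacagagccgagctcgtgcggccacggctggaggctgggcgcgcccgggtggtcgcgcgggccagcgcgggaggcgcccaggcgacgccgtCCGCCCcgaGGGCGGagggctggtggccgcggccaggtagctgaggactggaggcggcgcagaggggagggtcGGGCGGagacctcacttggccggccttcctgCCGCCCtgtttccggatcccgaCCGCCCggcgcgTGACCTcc
The 3 promoters differ in make-up. That of Nr2f2 holds CCAAT on both strands and no GGGCGG, and that of Reln holds GGGCGG 6 times. The first Cnr1 start has GGGCGG on both strands and, close to the start, a single AGGTCA on the opposite strand. The later Cnr1 starts, not printed here, held 0 matches to the 3 motifs. AGGTCA is the core that nuclear receptors such as the product of Nr2f2 bind as repeats, and it was found before 1 of the 10 starts of the marker genes and before 14.0% of all 32851 starts. CCAAT was found before 3 of the 10 and before 33.8% of all, and GGGCGG before 3 and 32.7%. Vip and Cck, both neuropeptide genes, each held TGACG, the core of the cyclic AMP response element, which was before 17.8% of all starts. These matches describe the letters only and none is a measured binding site.

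Of the nuclear regulators, Nr2f2 was the marker with the smallest p. Nr2f2 encodes COUP-TFII, an orphan nuclear receptor that caudal eminence precursors use while they migrate and that many reelin cells keep. Its signal was 9.12, 9.15 and 9.06 in knockout replicates 1, 2 and 3, and 8.67, 8.47 and 8.70 in wildtype replicates 1, 2 and 3. The knockout arrays lay within 0.09 of each other and all above the highest wildtype array. The linear fold change was 1.41 (log2 0.49, SE 0.08, 95% interval 0.30 to 0.69, limma adjusted p = 0.195). With an intensity trend and robust variances the limma adjusted p was 0.0462, and over all 15 alternatives it ran from 0.0462 to 0.537. Adarb2, the gene of an RNA editing family protein with no known editing activity and a marker of nearly all caudal eminence cells of the mouse cortex, read 9.56, 9.44 and 9.36 in the knockout and 9.32, 9.26 and 9.42 in the wildtype replicates. Its groups overlapped through wildtype replicate 3, and its log2 difference was 0.11 (SE 0.08, 95% interval -0.08 to 0.31, limma adjusted p = 0.694).

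Reln and Ndnf, genes of secreted glycoproteins, were separated between the genotypes by similar amounts. Reln encodes reelin, the signal that positions neurons during development, and is kept in neurogliaform cells. Reln read 9.78, 9.44 and 9.44 in knockout replicates 1, 2 and 3, against 9.003, 9.23 and 9.12 in the wildtype. Knockout replicate 1 was the highest array, and no array of one genotype entered the range of the other. The fold change of Reln was 1.35 (log2 0.43, SE 0.11, 95% interval 0.17 to 0.70, limma adjusted p = 0.451). Ndnf, which encodes a neuron-derived neurotrophic factor and marks neurogliaform cells of the outermost layer, read 10.29, 10.07 and 10.03 in the knockout and 9.68, 9.63 and 9.78 in the wildtype. As for Reln, knockout replicate 1 was highest. The fold change of Ndnf was 1.35 (log2 0.43, SE 0.09, 95% interval 0.21 to 0.65, limma adjusted p = 0.389). Nr2f2, Reln and Ndnf had an unadjusted p under 0.05 in all 15 alternatives.

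The neuropeptide genes Vip and Cck were not separated. Vip, whose peptide is released by cells that inhibit other interneurons, read 7.52, 7.37 and 7.74 in the knockout and 7.47, 7.38 and 7.30 in the wildtype. Only knockout replicates 1 and 3 lay above all wildtype arrays. The log2 difference of Vip was 0.16 (SE 0.11, 95% interval -0.09 to 0.41, limma adjusted p = 0.673), and without knockout replicate 3 it was 0.06. Cck, whose peptide marks a kind of basket cell and is also made by excitatory cells, read 12.33, 12.43 and 12.56 in the knockout and 12.49, 12.52 and 12.26 in the wildtype. The groups of Cck covered nearly the same range, with a log2 difference of 0.01 (SE 0.10, 95% interval -0.22 to 0.25, limma adjusted p = 0.977).

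Both receptor genes were higher in every knockout array than in any wildtype array. Htr3a encodes a subunit of the serotonin-gated ion channel, which among cortical interneurons of the mouse is nearly confined to those of the caudal eminence. It read 8.38, 7.83 and 8.53 in knockout replicates 1, 2 and 3, and 7.80, 7.59 and 7.71 in the wildtype. Knockout replicate 2 exceeded the highest wildtype array by only 0.03, whereas replicates 1 and 3 lay well above it. Htr3a had the largest fold change of the 10 genes and the widest spread in the knockout, 1.46 (log2 0.55, SE 0.17, 95% interval 0.14 to 0.96, limma adjusted p = 0.491). Its unadjusted limma p was 0.0153, and it was 0.0678 by the ordinary test, 0.0509 without knockout replicate 1, 0.0508 without knockout replicate 3 and 0.000213 without knockout replicate 2. Cnr1, the gene of the receptor CB1 through which endocannabinoids reduce GABA release, read 9.60, 9.64 and 9.77 in the knockout and 9.48, 9.50 and 9.40 in the wildtype. The fold change of Cnr1 was 1.16 (log2 0.21, SE 0.08, 95% interval 0.04 to 0.39, limma adjusted p = 0.514). Its unadjusted limma p of 0.0246 missed 0.05 when knockout replicate 3 (0.0774) or wildtype replicate 3 (0.0744) was left out, when the arrays were quantile normalized again (0.0676) and with the replicate number as a block (0.0605).

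The remaining markers, a calcium-binding and a membrane protein gene, varied as much within as between the genotypes. Calb2, which encodes calretinin, read 11.77, 12.005 and 11.57 in the knockout and 12.08, 11.49 and 11.59 in the wildtype. Its highest and its lowest array were both wildtype, replicates 1 and 2. The log2 difference of Calb2 was 0.07 (SE 0.18, 95% interval -0.35 to 0.48, limma adjusted p = 0.927). Lamp5, the gene of a lysosome-associated membrane protein that marks neurogliaform cells and is also used by some excitatory neurons, read 9.59, 9.55 and 9.68 in the knockout and 9.82, 9.63 and 9.31 in the wildtype. The knockout arrays of Lamp5 lay inside the wildtype range, and its log2 difference was 0.02 (SE 0.13, 95% interval -0.28 to 0.32, limma adjusted p = 0.975). Thus among the 4 markers used for neurogliaform cells, Reln, Ndnf and Nr2f2 were separated and Lamp5 was not, while the differences between them were not tested. Cplx3, a gene of neurogliaform cells outside the 10 that is described below, was lower in the knockout (log2 -0.22), and its groups did not overlap.

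**Figure D2:**
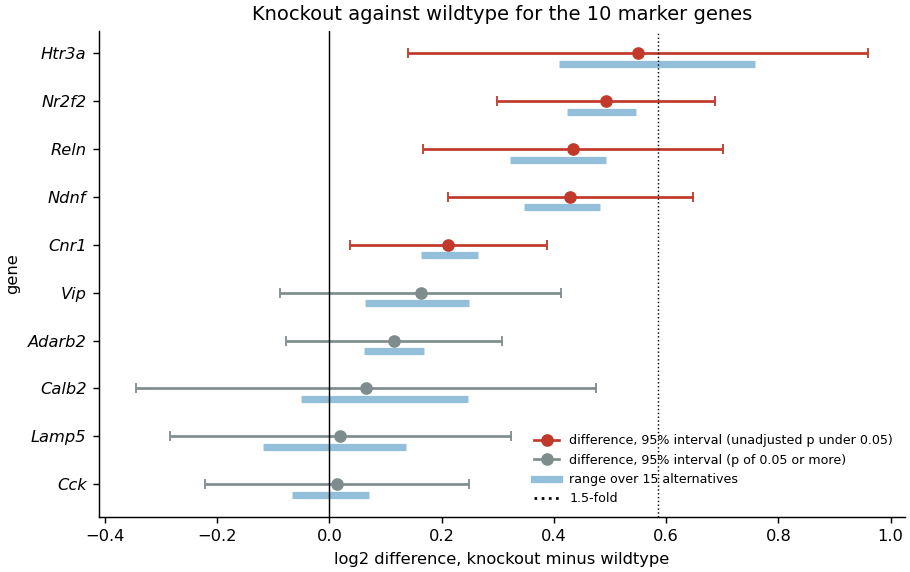
Log2 difference, knockout minus wildtype, of each marker gene (point) with its 95% interval from limma (bar, 3 arrays a group), red where the unadjusted p was under 0.05, and below it the range over 15 alternative analyses (blue). Htr3a, Nr2f2, Reln, Ndnf and Cnr1 have intervals above 0, those of the other 5 genes include 0, and only the blue ranges of Calb2, Lamp5 and Cck cross 0.

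Across arrays the markers did not follow a single order. Knockout replicate 3 held the highest value for 4 genes (Vip, Htr3a, Cck and Cnr1), knockout replicate 1 for 3 (Reln, Ndnf and Adarb2), knockout replicate 2 for 1 (Nr2f2) and wildtype replicate 1 for 2 (Calb2 and Lamp5). The lowest value lay in a wildtype array for all 10 genes. The mean of the 10 genes, each taken relative to its own mean over the arrays, was 0.16, 0.06 and 0.15 in the knockout replicates and -0.05, -0.16 and -0.17 in the wildtype replicates. The genes lie on 9 chromosomes, with Htr3a and Cck both on chromosome 9. Cnr1 shares chromosome 4 with Tnc and Calb2 shares chromosome 8 with Ncan, with 258 and 416 measured genes between them. Of the 20 nearest measured neighbours of the 10 genes, 1 had an unadjusted limma p under 0.05, Cmtr2 next to Calb2 (log2 0.23), and the neighbours of the 5 separated genes lay between -0.20 and 0.13.

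Further genes of caudal eminence interneurons had a lower median than the 10 markers, a difference between lists that was not tested. Of 24 measured genes 17 lay above 0, with a median log2 difference of 0.08, and at an unadjusted p under 0.05 by limma 8 were higher and 1 was lower. Over all probe sets the shares at this limit were 3.91% higher (4.94% of those above background) and 5.14% lower. The 4 with the smallest p among those that were higher were Sncg (0.38), which encodes gamma-synuclein and marks cholecystokinin basket cells, the transcription factor genes Npas1 (0.28) and Npas3 (0.31), and Tac2 (0.32), the gene of neurokinin B (log2 differences). Cplx3, a regulator of vesicle release found in neurogliaform cells, was the lower one with a log2 difference of -0.22, is named here after its value was seen, and had been picked by the study from these arrays. Among these 24 genes 0 passed the limma adjusted p of 0.05, and the smallest was 0.451. The count of 8 higher was also 8 without knockout replicate 3, against 2.92% of all probe sets.

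Genes that work with the markers, their receptors, ligands and enzymes, showed no common direction. Of 19 measured genes 8 lay above 0, with a median of -0.03. Only 1 had an unadjusted limma p under 0.05 and was higher, against 3.91% of all probe sets. That gene was Adcyap1, whose peptide PACAP shares receptors with vasoactive intestinal peptide, at 9.06 in the knockout and 8.53 in the wildtype mean (log2 0.53, SE 0.19, limma adjusted p = 0.509). The following were named for their roles after their values were seen. The VIP receptor genes Vipr1 and Vipr2 had log2 differences of -0.03 and -0.15. Those of the reelin receptors Vldlr and Lrp8 and of the adaptor Dab1 were 0.07, -0.09 and -0.03. The endocannabinoid enzymes Dagla, Mgll and Faah lay at -0.07, 0.02 and -0.07. Htr3b, the partner subunit of Htr3a and its neighbour in the genome, was below background in the mean, and its groups differed by -0.20 log2 units (limma adjusted p = 0.605).

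**Figure D3:**
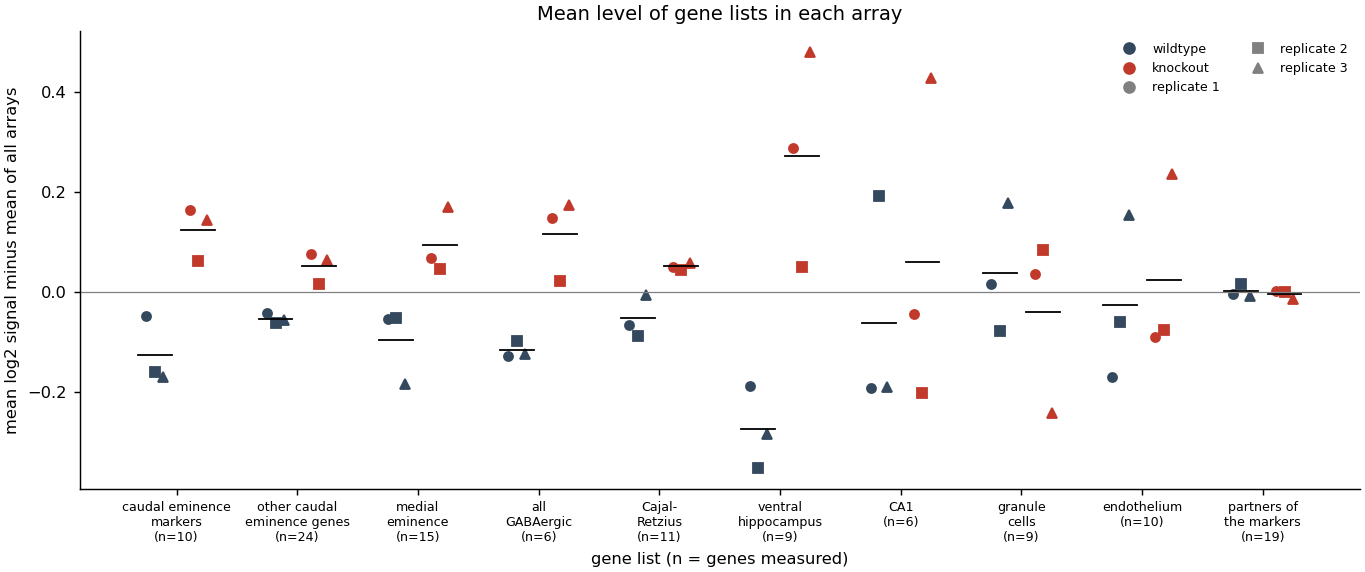
Mean log2 signal of 10 gene lists in each array, each gene relative to its own mean over all 6 arrays (vertical axis), for wildtype (dark) and knockout (red) arrays by replicate, with the mean of each group as a line and the number of measured genes under each list. The caudal eminence markers lie between -0.17 and -0.05 in the wildtype and between 0.06 and 0.16 in the knockout. Lists of other interneurons, of Cajal-Retzius cells and of the ventral hippocampus are parted in the same direction. Those of CA1, granule cells, endothelium and partners of the markers overlap.

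The interneuron lists outside the caudal eminence lay in the same direction. Of 15 measured genes of medial eminence interneurons 5 had an unadjusted limma p under 0.05, all 5 higher, with a median of 0.18 over the 15, beside 0.19 for the caudal eminence markers. They were led by Tac1 (log2 0.52), the gene of substance P, Nos1 (0.26), Grin3a (0.31) and Nxph1 (0.26). Over all probe sets the share that was higher at this limit was 3.91% (4.94% of those above background). Without knockout replicate 3, 2 of the 15 were higher, against 2.92% of all probe sets. Of 6 measured genes shared by all GABAergic cells, 3 were higher, the GABA synthesis gene Gad2 (0.34), a gene that the study chose from these arrays, and the transcription factor genes Dlx2 (0.28) and Dlx5 (0.28), and the median was 0.25. Without Gad2, 2 of the other 5 were higher and their median was 0.22. The difference between the caudal and the medial list was not tested.

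Markers of other cells and places that use the same genes gave a mixed picture. At an unadjusted limma p under 0.05, 3.91% of all probe sets were higher (4.94% of those above background) and 5.14% lower. Of 11 Cajal-Retzius cell markers 10 lay above 0 with a median of 0.09, and 1, Cacna2d2 (0.32), was higher at an unadjusted limma p under 0.05. Their mean level ran from 0.05 to 0.06 in the knockout and from -0.09 to -0.0041 in the wildtype arrays, without overlap. Lhx5 lay below background. Of 8 mossy cell markers 1 was higher, Rgs12 (0.21), which is also in the caudal eminence list, and the median was 0.03. Of 10 endothelial markers 1 was higher, the growth factor receptor gene Kdr (0.42), with a median of 0.05 and means from -0.09 to 0.24 in the knockout and from -0.17 to 0.15 in the wildtype. Pericyte, smooth muscle and meningeal markers had 0 higher and 2 lower of 12, Tagln (-0.31) and Col1a1 (-0.28). Immature granule cells (median -0.05 of 8), granule cells (-0.10 of 9), CA1 (0.06 of 6) and CA3 (0.09 of 8) had 0 genes higher at this limit, and 1 lower, Neurod1 (-0.22), among the immature granule cells. Without knockout replicate 3 the 4 medians changed sign, to 0.0086, 0.03, -0.10 and -0.03. In that fit 1 immature and 1 granule cell gene were higher, against 2.92% of all probe sets. The genes with the smallest p were Calb1 (-0.17) and Dsp (-0.18) for granule cells, Mpped1 (0.35) and Fibcd1 (0.31) for CA1, and Cpne4 (0.14) and Elavl2 (0.17) for CA3. Neighbouring regions gave 0 higher of 8 thalamus markers, 2 of 10 cortex markers, Rorb (0.27) and Nr4a2 (0.43), and 1 of 5 striatum markers, Tac1. The thalamus list was led by Tcf7l2 (0.16) and Tnnt1 (-0.26). The mean level of the cortex list, in which 8 of 10 genes lay above 0, did not overlap between the genotypes, with 0.04 to 0.06 in the knockout and -0.08 to -0.04 in the wildtype arrays. That of the striatum list did not overlap either, with -0.03 to 0.09 and -0.06 to -0.03. How often list means part in this way was not tested, nor was the part of these regions in the differences of the markers.

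Ventral hippocampus markers were also parted by genotype. The long axis of the hippocampus runs from a dorsal to a ventral pole that differ in gene use. Of 9 genes listed for the ventral pole, among them the marker Calb2, 8 lay above 0 with a median log2 difference of 0.36. The 5 with an unadjusted limma p under 0.05 were all higher, against 3.91% of all probe sets (4.94% of those above background). Without knockout replicate 3 the count was also 5, against 2.92% of all probe sets. Trhr, the receptor gene of thyrotropin-releasing hormone, read 8.51, 8.56 and 8.43 in the knockout and 7.84, 7.06 and 7.52 in the wildtype replicates. The groups of Trhr were far apart, with a difference of 1.03 log2 units (SE 0.18) and a limma adjusted p of 0.229. Gpc3 (0.44), also chosen by the study from these arrays, the ephrin gene Efnb2 (0.36) and the peptide gene Grp (0.31) were next by p. Dcn and Htr2c belong to the same list of 9 and are described here after their values were seen. Without Gpc3 the other 8 genes had a median of 0.33, 7 of them lay above 0, and 4 were higher at the same limit. Dcn, the gene of the proteoglycan decorin, read 8.92, 8.49 and 10.31 in the knockout and 7.91, 8.18 and 7.72 in the wildtype, so that it was highest in knockout replicate 3. Htr2c, a serotonin receptor gene, read 8.33, 6.16 and 8.76 in the knockout and 6.17, 6.55 and 6.43 in the wildtype. Its high arrays, knockout replicates 1 and 3, were also the high arrays of Htr3a. Htr2c is also a gene of the choroid plexus, and of 7 choroid plexus markers, a list added after the values were seen, 0 were higher at an unadjusted p under 0.05, the median was -0.12, and Aqp1 (-0.22) and Ttr (-0.64) had the smallest p. The mean level of the ventral list ran from 0.05 to 0.48 in the knockout and from -0.35 to -0.19 in the wildtype arrays. Its part in the differences of Nr2f2, Htr3a, Reln, Ndnf and Cnr1 was not tested.

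**Figure D4:**
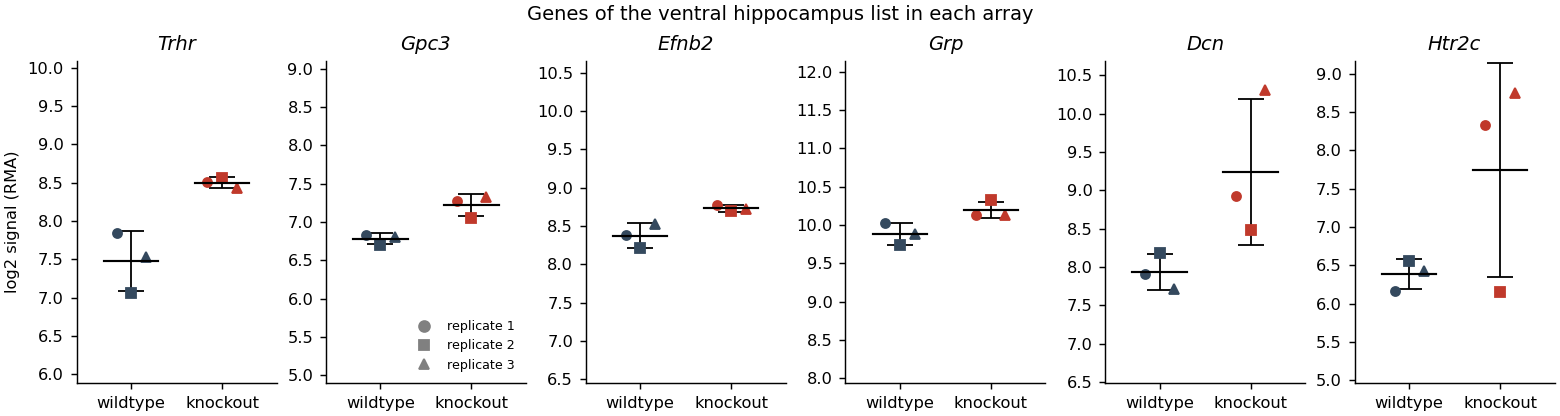
Log2 signal (RMA) of 6 genes of the ventral hippocampus list in each array, with the mean (line) and SD (bars, n = 3) of each group; each vertical axis spans the same range and does not start at 0. Every knockout array lies above every wildtype array for Trhr, Gpc3, Efnb2, Grp and Dcn, while Htr2c is high in knockout replicates 1 and 3 alone.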

How the data were processed

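The 6 arrays were grouped by their labels, which call them biological replicates, so the p-values rest on the spread between these animals. In limma the spread of each probe set is pooled in part with that of all others. A figure legend of the study calls the samples dependent and from siblings, and the labels do not tie animals to litters. The p-values treat the arrays as independent, which could not be checked. The authors deposited log2 signals for 34472 probe sets, made by RMA in Affymetrix Expression Console. Transcriptome Analysis Console also stands in the submitters' processing notes. A genome build is not given in the sources used here. Gene names came from the platform annotation, by which 23521 have 1 gene symbol, 1820 several and 9131 none, and those with several or none were tested but not named. Precision is limited by the number of arrays.

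The comparison used lmFit and eBayes of limma 3.58.1 (R 4.3.3), two-sided, and p-values were adjusted after Benjamini-Hochberg across the whole table. Lists were described by counts and medians, without a set test, and some share genes. The marker genes and the lists were chosen with earlier results of these data known. Named were the 10 markers, the 4 deleted genes and, in each list, up to 4 genes with the smallest unadjusted p under 0.05, or without such genes the 2 with the smallest p. The nearest neighbours of the markers and the genes so marked in the text were named after their values were seen. The limma step was tested on simulated data. Alternatives were a replicate block, a variance trend, array weights, other scalings, filters and probe set choices, the ordinary test taken for the Anova of the methods, and each array left out in turn. The gene order of GRCm38.p6 served only for neighbours and chromosomes. Figures were drawn with matplotlib 3.10.9.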

Additional observations from a re-analysis of the deposited data

How the results depend on the processing

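Over 15 alternatives Nr2f2, Reln, Ndnf, Htr3a, Cnr1, Vip and Adarb2 stayed above 0. Of all markers and alternatives, 1 marker passed the adjusted p of 0.05 in 1 alternative, Nr2f2 with an intensity trend and robust variances (limma adjusted p = 0.0462). Cck and Lamp5 turned below 0 with array weights (-0.0224 and -0.0102) and after another quantile normalization (-0.0045 and -0.0257). With arrays left out in turn Cck ran from -0.0673 to 0.0698, Lamp5 from -0.12 to 0.14 and Calb2 from -0.0499 to 0.25, so these genes have no settled direction. The count of markers at an unadjusted p under 0.05 ran from 3 to 6 with arrays left out, the lowest without knockout replicate 3. There 2.92% of all probe sets were higher at this limit by limma, beside 3.91% in the main fit. For the other alternatives, the replicate block among them, this share was not counted. The number of probe sets past the adjusted p, 48 over the whole table, was 24 with the ordinary test and 59 over those above background. It was 7 when each gene had 1 probe set and 10 when its probe sets were averaged. Both of these covered fewer tests and left out the probe sets with several gene symbols or none. Why the number fell was not tested. Median centring moved the median of all probe sets by 0.05 and that of the markers to 0.24. Same-numbered arrays did not deviate together (r from -0.22 to -0.03), so the replicate numbers were not taken as pairs. With a replicate block 39 probe sets passed and 4 markers had an unadjusted p under 0.05, Cnr1 no longer among them. In the main fit all 10 differences lay below 1.5-fold, and with 3 arrays a group those of Calb2, Cck, Lamp5, Vip and Adarb2 had intervals that include 0. Over the 15 alternatives the log2 difference of Htr3a ran from 0.41 to 0.76, which at its upper end is above 1.5-fold.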
